A study of Mus musculus with 8 samples.

Results

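The control hypothalamus is described here gene by gene from the 4 control pools among the 8 pools of an RNA sequencing series on mouse hypothalamus. The 4 pools were chosen by their label, and no comparison with the other genotype was made. Each pool held hypothalamic RNA of 2 female mice aged 16 weeks, sequenced as a stranded library of polyadenylated RNA. The labels give the control genotype as wildtype, while the paper describes C451Af/f littermates, which are homozygous for the floxed allele and lack Cre, so the genotype is called control below. Each library averages a pair of animals, which makes the pools more alike than individual mice would have been. Total estimated counts were 39692314, 43755502, 48942116 and 37841365 in control replicates 1, 2, 3 and 4, with a median of 41723908.

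The hypothalamus keeps body temperature, feeding, water balance, stress responses and reproduction within limits. Many of its neurons release neuropeptides, short signalling chains that are cut from larger precursor proteins inside secretory granules. Some of these neurons send their peptide to the pituitary gland, and others signal within the brain beside the fast transmitters GABA and glutamate.

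Levels within a gene are given as CPM, its counts per 1000000 counts of the library, with library sizes scaled for composition. Levels of different genes were compared as CPM per kilobase (kb) of the longest annotated transcript, and a ranking in CPM describes only how the counts were shared out. All values after a ± sign are standard deviations over n = 4 pools. The tissue label was checked against a list of transcription factors that mark hypothalamic cell groups, and 24 of 24 reached 1 CPM in each pool. The serotonergic hindbrain list summed to 0.231 ± 0.0541 CPM per kb and the cerebellar list to 0.250 ± 0.0930 CPM per kb, and none of their 4 genes each had a mean of 1 CPM. The X-inactivation RNA *Xist* was at 358, 348, 325 and 360.2 CPM in control replicates 1 to 4, which is the pattern of female tissue. The Y-linked genes *Ddx3y* and *Eif2s3y* had no count in any control pool, which allows up to 0.0744, 0.0687, 0.0613 and 0.0794 CPM in replicates 1 to 4. The other Y-linked genes of the list, *Kdm5d* and *Uty*, were at 0.743, 0.662, 0.756 and 0.502 CPM and 0.119, 0.190, 0.184 and 0.159 CPM.

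Several gene lists differed widely between the pools or had 1 pool apart from the other 3, and they are given here before the results that they touch. Markers of the anterior pituitary summed to 1647, 110.0, 26.9 and 39.7 CPM per kb in control replicates 1 to 4, far higher in replicate 1 than in the others. Markers of the thalamus summed to 22.2, 111, 45.3 and 42.3 CPM per kb, highest in replicate 2. Markers of the leptomeninges, the thin membranes around the brain, summed to 53.2, 29.5, 57.7 and 22.3 CPM per kb, with replicates 1 and 3 above replicates 2 and 4. Replicate 1 was also apart from the other 3 pools for oligodendrocyte genes, replicate 2 for the sum of the cortical and hippocampal list, through the single gene *Slc17a7*, and replicate 4 for a pair of reference genes, with the sums given under each below. All 4 pools were kept throughout. In bulk tissue, fewer cells of a type and less RNA per cell cannot be told apart.

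Of 55890 genes in the table, 30156 had a count in at least 1 control pool. At least 1 CPM in each of the 4 pools was found for 15135 genes, and a mean of at least 1 CPM for 15647 genes. Among the latter the median level was 23.4 CPM, 10732 genes reached a mean of 10 CPM, 2325 reached 100 CPM and 72 reached 1000 CPM. In single pools, between 1121 and 1142 genes held 50% of all counts. The 10 most abundant genes of a pool held 6.88 ± 0.184% of its counts. The counts were thus spread over many genes to a nearly equal degree in the 4 pools.

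Protein-coding genes held 96.3 ± 0.0608% of the counts and made up 13762 of the 15135 genes detected in each pool. Long non-coding RNA genes held 1.98 ± 0.0477% of the counts with 796 genes detected. Pseudogenes, copies of genes that mostly code for no protein, held 0.547 ± 0.0131% with 201 genes detected. Of these 3 classes protein-coding genes varied least, with a median coefficient of variation (CV, the standard deviation over the mean) of 5.10% between pools, against 10.7% for long non-coding RNA genes and 13.3% for pseudogenes. The 2 non-coding mitochondrial RNA genes with a mean of at least 1 CPM had a lower median CV of 3.31%.

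Genes of the mitochondrial genome, which code for parts of the respiratory chain and its ribosome, held 6.96 ± 0.170% of the counts. The cytochrome oxidase subunit gene *mt-Co1* held the most counts of all genes, at 16570.1, 18722, 17925 and 17276 CPM in control replicates 1 to 4. It was also the highest per length, at 11407 ± 594 CPM per kb. Of the 20 genes with the highest mean CPM, 11 lay on the mitochondrial genome.

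Per length, *Gapdh*, which codes for a glycolytic enzyme, was at 1348 ± 54.3 CPM per kb. The lipid carrier gene *Apoe*, made mainly by astrocytes in brain, was at 1236 ± 31.8 CPM per kb. The translation factor gene *Eef1a1* was at 1155 ± 62.7 CPM per kb, the ubiquitin gene *Ubb* at 947 ± 32.7 CPM per kb and the chaperone gene *Hspa8* at 932 ± 8.44 CPM per kb. These 5 nuclear protein-coding genes were the most abundant per length of the longest transcript, and the spread of each between pools was small beside its mean. Their order rests on the choice of length. Per kb of all annotated exons, an alternative chosen after the data were seen, *Gapdh* was at 463, *Apoe* at 814, *Eef1a1* at 831, *Ubb* at 848 and *Hspa8* at 519 CPM per kb, so that *Gapdh* was the lowest of the 5.

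*Meg3*, a maternally expressed imprinted RNA, held the most counts among long non-coding RNA genes, with 6506, 7264, 6829.7 and 7683 CPM in control replicates 1 to 4. It alone held 35.7 ± 1.59% of the counts of that class. This share rests on the biotype labels of the annotation used. *Snhg11*, at 3756 ± 72.6 CPM, is labelled protein-coding there and was not counted in the class. *Rian*, which lies in the same imprinted domain, was at 1074 ± 30.6 CPM, and the neuronal RNA *Miat* at 600.3 ± 9.88 CPM. *Malat1*, a nuclear RNA, was highest in replicate 4, at 161, 167, 166 and 203 CPM in replicates 1 to 4. The short RNA *Bc1*, which is carried into dendrites, was at 354, 123, 163 and 193 CPM in replicates 1 to 4, and its level in replicate 1 was the highest. Per length *Bc1* lay above *Meg3* in each pool, at 2106, 731, 972 and 1146 against 447, 499, 469 and 528 CPM per kb. *Bc1* is annotated at only 168 bases, so its level per length rests heavily on that length. The capture of so short an RNA in a library of polyadenylated RNA was not tested. The CV of *Bc1*, 48.6%, was the largest among the 10 genes of the class with the highest CPM.

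The 5 pseudogenes with the highest CPM each share most of their sequence with an abundant gene, and reads from such copies cannot always be told apart. *Gm29216* was at 1843 ± 149.9 CPM and matches the mitochondrial gene *mt-Co1* at 99.8% over 483 bases. *Gm12671* was at 213 ± 17.7 CPM and matches *Gapdh* at 100% over 1002 bases. *Gm1821* matches *Ubb*, *Gm10123* matches the cyclophilin gene *Ppia*, and *Gm28438* matches *mt-Nd3*.

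Neuronal genes were abundant. The list of 14 pan-neuronal genes summed to 2940.5, 3208, 3079 and 3025 CPM per kb in control replicates 1 to 4, a CV of 3.66%. The deubiquitinating enzyme gene *Uchl1* was at 562 ± 36.7 CPM per kb and the synaptic fusion gene *Snap25* at 548 ± 23.3 CPM per kb, the highest in the list. The nuclear marker gene of mature neurons, *Rbfox3*, was at 42.3 ± 0.858 CPM per kb. All 14 genes reached 1 CPM in each pool. Of them, 10 were highest in replicate 2 and 0 in replicate 1, against 25.4% and 27.3% of all 15647 genes.

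Genes of the GABA phenotype stood above the vesicular glutamate transporters per length. *Gad1*, for an enzyme that makes GABA, was at 111, 115, 117 and 122 CPM per kb in replicates 1 to 4, and the vesicular GABA transporter gene *Slc32a1* was at 64.9, 67.6, 68.6 and 69.4 CPM per kb. The glutamate transporter gene *Slc17a6*, the form used in hypothalamus, was at 57.6, 61.1, 63.0 and 61.3 CPM per kb. The ranges of the 3 genes over the pools did not overlap, with *Gad1* highest and *Slc17a6* lowest. Their order was not checked with the length of all annotated exons. With that length the GABA transmitter list had a mean sum of 194 CPM per kb and the glutamate transmitter list 50.6 CPM per kb. *Slc17a7*, the form used in cortex and in parts of the thalamus, was at 3.43, 16.2, 2.85 and 2.48 CPM per kb and was highest in replicate 2.

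Among genes of amine and acetylcholine transmission, *Th*, for the enzyme that starts dopamine synthesis, was at 24.5 ± 2.20 CPM per kb. The histamine enzyme gene *Hdc* was at 19.3 ± 2.64 CPM per kb, and the acetylcholine enzyme gene *Chat* at 0.663 ± 0.257 CPM per kb. The dopamine transporter gene *Slc6a3* was at 6.89, 4.24, 15.8 and 26.3 CPM in replicates 1 to 4, higher in replicates 3 and 4 than in replicates 1 and 2. The midbrain patterning gene *En1* was at 0.322, 0.366, 0.736 and 2.01 CPM, highest in replicate 4. The whole list of 11 midbrain dopaminergic markers summed to 97.9, 93.6, 111 and 117 CPM per kb in replicates 1 to 4, with 8 of 11 genes at a mean of 1 CPM or more, *Aldh1a1* the most abundant and none at 0 in all pools. The part of such markers in the level of *Slc6a3* was not tested.

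Glial lists differed in how evenly they were represented. Astrocyte genes summed to 1488, 1489, 1523 and 1455 CPM per kb in control replicates 1 to 4, a CV of 1.87%. The glycolytic gene *Aldoc* led the list at 347 ± 11.0 CPM per kb, and the filament gene *Gfap* was at 82.2 ± 3.40 CPM per kb. Microglial genes summed to 216, 217, 218 and 209 CPM per kb, a CV of 1.97%. These 2 lists had the smallest CVs among the glial lists.

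Oligodendrocyte genes summed to 1401, 1639, 1655 and 1652 CPM per kb in control replicates 1 to 4. Replicate 1 lay below the other 3 pools, and the mean without it was 1649 CPM per kb, against 1587 CPM per kb with it. The myelin gene *Mbp* was also lowest in replicate 1, at 456, 554, 555 and 540.4 CPM per kb, as was the myelin adhesion gene *Mag*, at 66.3, 79.9, 79.7 and 81.4 CPM per kb. Genes of oligodendrocyte precursors summed to 65.1, 69.5, 69.9 and 70.8 CPM per kb.

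Genes of the cells that line the third ventricle were detected in each pool. Ependymal genes, for ciliated lining cells, summed to 62.7, 48.6, 47.0 and 55.8 CPM per kb in replicates 1 to 4, and tanycyte genes, for lining cells whose processes reach blood vessels, to 31.1, 23.0, 24.9 and 25.4 CPM per kb. Both sums were highest in replicate 1. The melatonin-related receptor gene *Gpr50* led the tanycyte list at 5.99 ± 0.963 CPM per kb. Choroid plexus genes summed to 13.5, 11.5, 10.9 and 9.69 CPM per kb, but only 3 of these 8 genes reached 1 CPM in each pool.

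Vessel genes varied less between pools than blood and membrane genes. Endothelial genes summed to 151, 156, 157 and 142 CPM per kb and mural genes, for the contractile cells around vessels, to 86.9, 82.5, 91.6 and 69.3 CPM per kb in control replicates 1 to 4. Red blood cell genes, led by the beta-globin gene *Hbb-bs*, summed to 474, 362, 221 and 315 CPM per kb, highest in replicate 1 and lowest in replicate 3. The leptomeningeal list, led by the growth factor gene *Igf2*, had all 8 genes at 1 CPM or more in each pool. *Igf2* itself was at 19.6, 10.1, 25.1 and 6.26 CPM per kb. Border macrophage genes summed to 3.17, 1.86, 3.26 and 1.38 CPM per kb, and like the leptomeningeal genes they were higher in replicates 1 and 3. Only 2 of the 5 border macrophage genes reached 1 CPM in each pool. The organic anion transporter gene *Slc22a6* was at 8.51, 2.11, 10.1 and 0.291 CPM and the sulfate transporter gene *Slc13a4* at 15.2, 5.46, 19.5 and 1.33 CPM, again higher in replicates 1 and 3. The part of membrane cells in these levels was not tested.

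**Figure D1:**
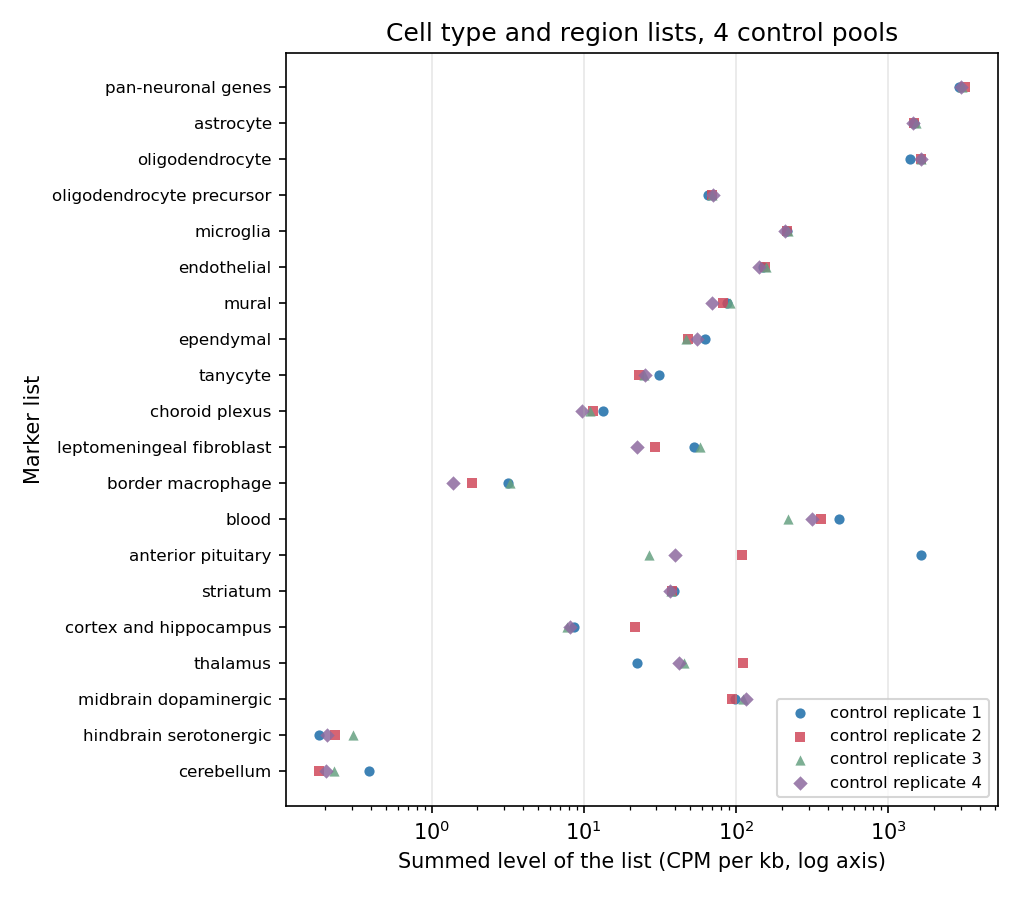
Summed level of each cell type and region list in CPM per kb on a log axis, with 1 point for each of the 4 control pools. The anterior pituitary list spans from 26.9 to 1647 CPM per kb, while the astrocyte list spans from 1455 to 1523 CPM per kb.

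The neuropeptide list held 66 precursor genes, of which 42 had a mean of at least 1 CPM, 22 a mean of at least 10 CPM and 7 a mean of at least 100 CPM. Summed over the list, the level was 3146, 2399, 2772 and 2300.0 CPM per kb in control replicates 1 to 4. The 4 highest genes held 64.6% of the mean sum and the 10 highest 86.1%. Peptide output at the RNA level was thus concentrated in few genes.

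*Pmch*, the precursor gene of melanin-concentrating hormone in lateral hypothalamic neurons (ENSMUSG00000035383.8, chromosome 10 from 88091072 to 88092375 in GRCm38), ranked first at 841, 570.0, 685 and 594 CPM per kb in replicates 1 to 4. *Oxt*, the oxytocin gene (ENSMUSG00000027301.8, chromosome 2 from 130576173 to 130577054), was at 505, 373, 458 and 325 CPM per kb. *Avp*, the vasopressin gene (ENSMUSG00000037727.7, chromosome 2 from 130580620 to 130582554), was at 452, 338, 414 and 263 CPM per kb. *Oxt* and *Avp*, which lie on opposite strands of chromosome 2 with 3565 bases between them, kept the same order in each pool, but their ranges over the pools overlapped.

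*Hcrt*, the precursor gene of the wake-promoting orexins (ENSMUSG00000045471.5, chromosome 11 from 100761069 to 100762931), was at 312, 212, 284 and 228 CPM per kb. *Sst*, the somatostatin gene, was at 207, 163, 174 and 157 CPM per kb. *Agt*, the angiotensin precursor gene, was at 152, 148, 155 and 138 CPM per kb. *Agt* is expressed by astrocytes, is also a member of the astrocyte list and was counted in both sums. The first 6 places were the same in all 4 pools. Replicate 1 had the highest level of each of *Pmch*, *Oxt*, *Avp*, *Hcrt* and *Sst*, and replicate 4 the lowest of *Oxt*, *Avp* and *Sst*.

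Below them the order was closer. The thyrotropin-releasing hormone gene *Trh* was at 64.8 ± 2.35 CPM per kb, the enkephalin gene *Penk* at 64.6 ± 3.39 CPM per kb, and *Cartpt*, for a peptide that lowers feeding, at 59.7 ± 6.20 CPM per kb. Among the 19 neighbouring pairs in the first 20 places, 12 had overlapping ranges over the pools, while 11 pairs kept their order within every pool. *Pomc*, the precursor gene of the melanocortins, was at 94.7, 47.6, 48.4 and 48.7 CPM per kb and stood apart in replicate 1. Its mates of the arcuate nucleus, *Npy* and *Agrp*, for peptides that raise feeding, were at 33.7, 22.1, 22.7 and 23.3 and 5.26, 3.31, 3.99 and 3.33 CPM per kb, also highest in replicate 1.

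The cholecystokinin gene *Cck* was instead highest in replicate 2, at 21.3, 60.2, 36.8 and 32.4 CPM per kb in replicates 1 to 4. *Crh*, for the hormone that drives the stress axis, was at 5.53 ± 0.447 CPM per kb, and *Ghrh*, for growth hormone-releasing hormone, at 9.41 ± 2.32 CPM per kb. *Gnrh1*, made by the scattered neurons that drive reproduction, was at 0.821, 0.939, 1.12 and 2.43 CPM in replicates 1 to 4, highest in replicate 4. *Kiss1*, for a peptide that acts on those neurons, had no count in any pool, and neither had the overlapping gene *Golt1a*. Each overlaps a pair of annotated entries named *Gm28040*. The entry that spans all of *Kiss1* (ENSMUSG00000098306.10) was at 0.0972, 0.0576, 0.0505 and 0.229 CPM in replicates 1 to 4. The other, which overlaps most of *Kiss1* (ENSMUSG00000115958.2), was at 2.25, 2.07, 1.41 and 1.72 CPM. How reads shared by these genes were assigned was not tested, so a count of 0 sets no upper limit for *Kiss1* RNA here. *Pyy* and *Ppy* were also at 0.

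**Figure D2:**
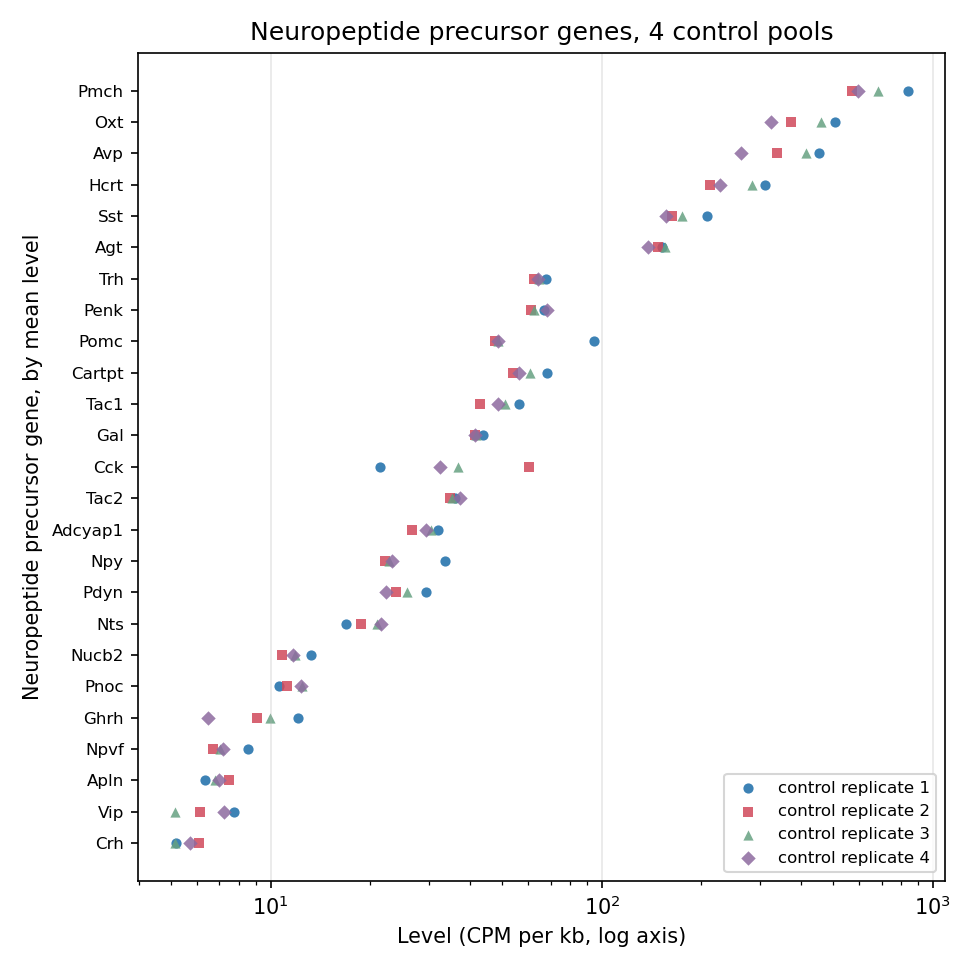
The 25 most abundant neuropeptide precursor genes by mean level in CPM per kb on a log axis, with 1 point for each of the 4 control pools. *Pmch* lies highest, from 570.0 to 841 CPM per kb, and *Pomc* has 1 pool at 94.7 CPM per kb apart from 3 between 47.6 and 48.7 CPM per kb.

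Of the 42 peptide genes with a mean of at least 1 CPM, 27 were highest in replicate 1, 5 in replicate 2, 3 in replicate 3 and 7 in replicate 4. Of all 15647 genes, 27.3% were highest in replicate 1. The 100 bases before the RefSeq start are shown for the genes in the first 6 places and for *Pomc*, picked for its level in replicate 1, with the forward letters TATAAA, a form of the TATA box, in capitals where present. The sequences are from RefSeq (GRCm38.p6), written on the strand of the gene. The RefSeq starts of *Oxt*, *Avp*, *Sst* and *Pomc* differ from the GENCODE gene ends used for positions above. For *Sst* the window lies wholly inside the GENCODE gene. The windows cover chr10:88090972-88091071 (plus strand) for *Pmch*, chr11:100762932-100763031 (minus strand) for *Hcrt*, chr12:3954845-3954944 (plus strand) for *Pomc*, chr2:130576069-130576168 (plus strand) for *Oxt*, chr2:130582589-130582688 (minus strand) for *Avp*, chr16:23890845-23890944 (minus strand) for *Sst* and chr8:124569707-124569806 (minus strand) for *Agt*.
Pmch: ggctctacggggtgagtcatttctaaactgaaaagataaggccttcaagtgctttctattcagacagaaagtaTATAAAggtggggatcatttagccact
Oxt: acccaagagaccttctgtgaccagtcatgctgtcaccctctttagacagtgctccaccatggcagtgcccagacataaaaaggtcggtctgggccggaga
Avp: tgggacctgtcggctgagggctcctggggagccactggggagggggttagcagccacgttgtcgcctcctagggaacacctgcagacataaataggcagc
Hcrt: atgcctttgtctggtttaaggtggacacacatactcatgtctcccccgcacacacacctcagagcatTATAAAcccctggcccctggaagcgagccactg
Sst: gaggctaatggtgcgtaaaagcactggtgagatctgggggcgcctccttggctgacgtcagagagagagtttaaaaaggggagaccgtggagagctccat
Agt: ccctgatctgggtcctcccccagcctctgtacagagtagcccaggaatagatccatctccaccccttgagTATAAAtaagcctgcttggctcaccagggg
Pomc: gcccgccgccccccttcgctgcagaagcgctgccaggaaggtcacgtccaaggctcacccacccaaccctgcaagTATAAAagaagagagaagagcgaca
The letters were found in *Pmch*, *Hcrt*, *Agt* and *Pomc* and not in *Oxt*, *Avp* and *Sst* within this window. In the whole list, promoters of 55 genes were available, and 18 of 60 promoters (30%) held TATAAA on the forward strand and 33.3% on either strand. Among all 32851 promoters the shares were 3.80% and 5.56%. A match describes letters and no more.

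Genes for secretory granule proteins, which package and process peptides, were abundant. The 7 genes summed to 1738, 1581, 1669.7 and 1596 CPM per kb in replicates 1 to 4. *Pcsk1n*, for an inhibitor of a peptide-cleaving enzyme, was at 453 ± 22.6 CPM per kb and *Scg2*, for a granin, at 440.1 ± 29.5 CPM per kb, and their ranges overlapped. *Chgb*, for another granin, was at 133, 116, 116 and 115 CPM per kb. Of the 7 genes, 6 were highest in replicate 1, against 27.3% of all 15647 genes.

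Genes for hormone and peptide receptors summed to 389, 367, 382 and 377 CPM per kb in replicates 1 to 4. Of 38 genes in that list, 37 had at least 1 CPM in each pool. The exception was *Oprm1*, for the mu opioid receptor, at 0.397, 0.481, 0.490 and 0.688 CPM. The thyroid hormone receptor gene *Thra* was at 214 ± 5.93 CPM per kb and held 56.4% of the list sum. The glucocorticoid receptor gene *Nr3c1* was at 11.5 ± 0.630 CPM per kb, the melanocortin receptor gene *Mc4r* at 1.21 ± 0.126 CPM per kb and the leptin receptor gene *Lepr* at 0.708 ± 0.160 CPM per kb. The estrogen receptor gene *Esr1* was at 12.3, 12.8, 11.6 and 16.0 CPM in replicates 1 to 4, highest in replicate 4.

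Transcription factors of the hypothalamus summed to 154, 129.9, 141 and 134 CPM per kb in replicates 1 to 4, and 17 of 24 genes were highest in replicate 1, against 27.3% of all 15647 genes. *Otp*, which specifies neuroendocrine neurons, was the most abundant at 24.8, 19.0, 20.4 and 18.4 CPM per kb. *Nkx2-1*, which patterns the ventral hypothalamus, was at 13.5, 11.6, 11.4 and 12.6 CPM per kb. *Nr5a1*, which marks the ventromedial nucleus, was at 5.22, 3.29, 4.05 and 3.72 CPM per kb, and *Tbx3*, which acts in arcuate neurons, at 3.75, 2.35, 2.85 and 2.61 CPM per kb. All 4 were highest in replicate 1, whereas *Lhx9* was highest in replicate 2, at 0.906, 1.72, 1.31 and 1.33 CPM per kb. Genes induced by activity summed to 83.2, 73.6, 71.2 and 90.6 CPM per kb, led by *Egr1*, and were highest in replicate 4.

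Across all 15647 genes with a mean of at least 1 CPM, the median CV between control pools was 5.50%, and the median CV that counting alone would give was 3.18%. The CV fell with the level, from a median of 14.0% between 1 and 5 CPM to 3.21% between 100 and 1000 CPM. A CV under 10% was found for 76.1% of genes. The biological coefficient of variation estimated by edgeR was 8.87%. For the 72 genes at 1000 CPM or more the median was 3.49%, where counting gives 0.406%. The CV thus no longer fell at the highest levels, and its ratio to the counting CV was the largest there among the 6 ranges of level.

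The highest pool was at least 2 times the lowest for 349 genes (2.23%). Without replicate 1 the count was 223, and without replicate 4 it was 229. A pool was called apart where its gap to the nearest pool took up most of the whole range (Dixon's 95% value for 4 samples), which chance gives in about 1 of 20 genes, and 838 genes (5.36%) met this. Replicate 1 was the lone pool for 254 of them, replicate 2 for 209, replicate 3 for 102 and replicate 4 for 273. Both conditions together held for 22 genes (0.141%). The share of lone pools among all genes was therefore near the share that chance gives.

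For each of the 6 pairs of pools, the chi-square per degree of freedom over genes was well above 1, from 8.27 for replicates 2 and 3 to 17.5 for replicates 1 and 2. The 3 pairs with replicate 1 had the largest values. The number of genes that differed at least 2-fold gave another order. It was lowest for replicates 1 and 3, at 56, and highest for replicates 1 and 4, at 119. The median absolute log2 difference of a pair lay between 0.07 and 0.10.

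**Figure D3:**
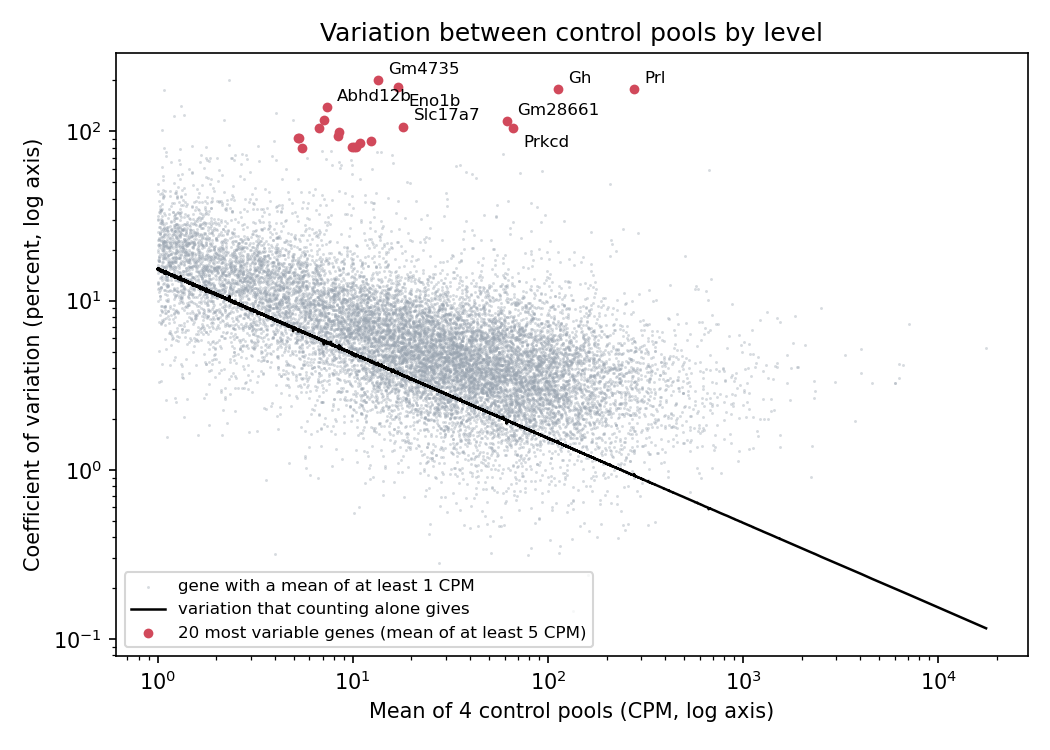
Coefficient of variation over the 4 control pools against mean level in CPM, both on log axes, with 1 point for each of 15647 genes and a line for the variation that counting alone gives. Marked are the 20 most variable genes, among them *Prl* with a CV of 178% at a mean of 277 CPM.

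Apart from near-identical gene copies, the pituitary hormone genes *Prl* and *Gh* had the highest CVs among genes with a mean of at least 5 CPM. *Prl*, the prolactin gene (ENSMUSG00000021342.15, chromosome 13 from 27057570 to 27065205), was at 1013, 68.7, 10.7 and 15.0 CPM in control replicates 1 to 4. *Gh*, the growth hormone gene, was at 410.1, 23.5, 4.51 and 11.2 CPM. *Cga*, for the alpha subunit shared by glycoprotein hormones, was at 20.3, 3.07, 4.85 and 5.60 CPM. All were highest in replicate 1. Of the 10 genes of the anterior pituitary list, 6 had a mean of at least 1 CPM, *Prl* held 67.8% of the mean sum, and none was at 0 in all pools. The mean sum was 456 CPM per kb with replicate 1 and 58.9 CPM per kb without it. *Pomc* is also expressed by pituitary cells, and *Tbx19*, a factor of those cells, was at 2.38, 1.06, 1.33 and 1.35 CPM. The part of pituitary RNA in the level of *Pomc* or of any other gene in replicate 1 was not tested.

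Replicate 2 was highest for thalamic genes. *Prkcd*, for a protein kinase C, was at 16.5, 169, 42.3 and 37.7 CPM in control replicates 1 to 4. *Tcf7l2*, a transcription factor of thalamic neurons, was at 19.7, 74.2, 41.9 and 36.3 CPM, and the troponin gene *Tnnt1* at 0.726, 12.2, 4.23 and 4.11 CPM. All 3 were also lowest in replicate 1. All 5 genes of the thalamic list had a mean of at least 1 CPM, *Prkcd* was the most abundant, and the mean sum was 55.2 CPM per kb with replicate 2 and 36.6 CPM per kb without it.

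Other genes with the same highest pool were *Gabrd*, for a GABA receptor subunit, at 1.14, 17.1, 4.38 and 4.35 CPM, and *Ramp3*, for a receptor-modifying protein, at 3.20, 28.1, 10.6 and 7.67 CPM. The homeobox gene *Shox2* was at 2.0, 23.9, 8.96 and 8.69 CPM and the hydrolase gene *Abhd12b* at 0.521, 22.5, 3.74 and 2.62 CPM. Each of these 4 was lowest in replicate 1 as well. The cortical and hippocampal list summed to 8.67, 21.8, 7.78 and 8.09 CPM per kb, led by *Slc17a7*, with 5 of 6 genes at a mean of 1 CPM or more and none at 0 in all pools. Without *Slc17a7* the list summed to 5.24, 5.62, 4.93 and 5.62 CPM per kb, so the remaining genes did not stand out in replicate 2. With replicate 2 left out, the mean sum of the full list was 8.18 CPM per kb. The part of thalamic tissue in the levels of *Slc17a7*, *Cck* and the other genes was not tested. Striatal genes, in contrast, summed to 39.5, 38.2, 37.6 and 36.9 CPM per kb.

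**Figure D4:**
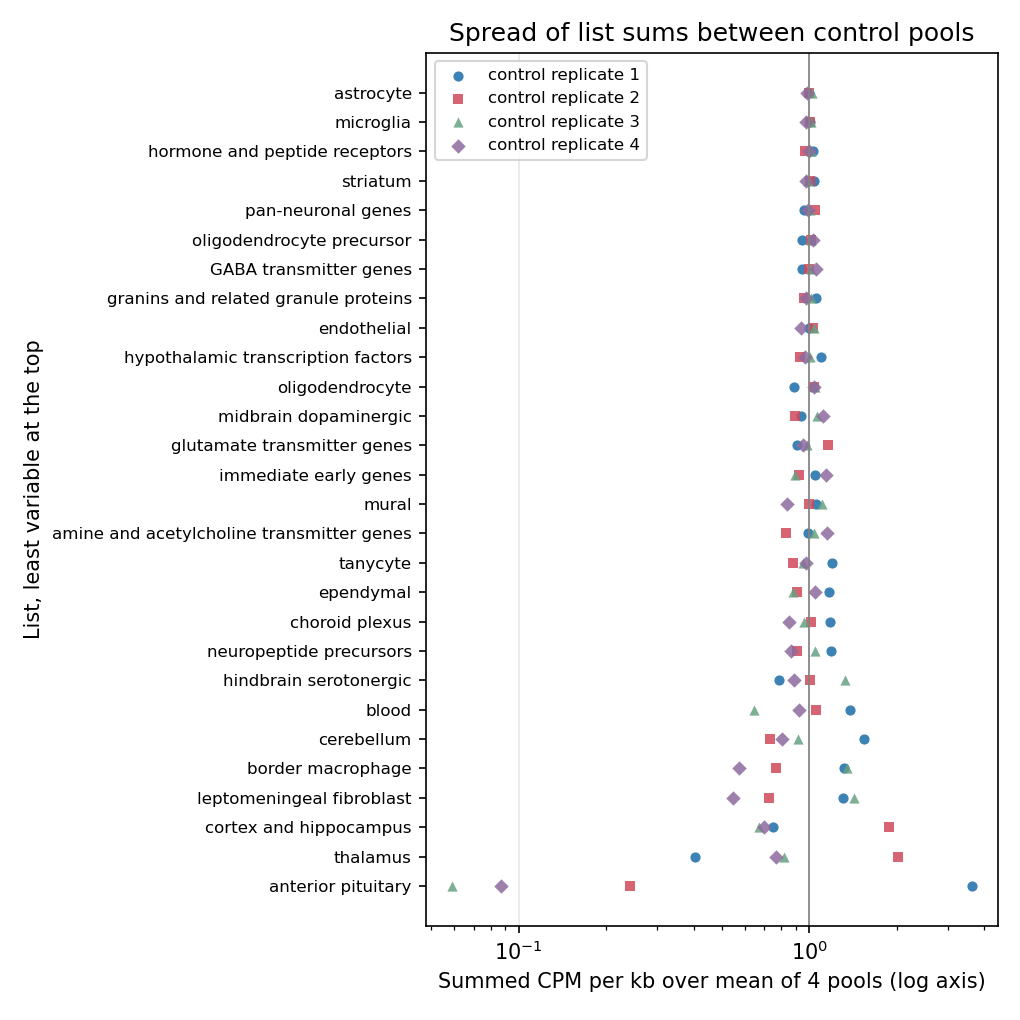
Summed CPM per kb of each list divided by its mean over the 4 control pools, on a log axis, with 1 point for each pool and the least variable list at the top. The highest pool is 61.1 times the lowest for the anterior pituitary list and 4.99 times for the thalamus list.

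Some of the most variable entries were near-identical copies of another gene. *Gm4735* was at 53.8, 0.0495, 0 and 0 CPM and *Eno1b* at 63.7, 1.43, 1.43 and 1.43 CPM in replicates 1 to 4, and both share over 99% of the aligned bases with the enolase gene *Eno1*. *Eno1* was at 537, 695, 689 and 657 CPM, lowest in replicate 1. Summed, the 3 genes were at 655, 696, 690.4 and 659 CPM, a CV of 3.15%.

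*Fam205a3* was at 0, 12.7, 15.7 and 0 CPM and *Fam205a4* at 17.1, 2.57, 0 and 14.3 CPM, and they are identical over 3927 bases. Their sum had a CV of 7.38%, so the sum was even where the single genes were not. *Gm28661*, identical to *mt-Co2* over 681 bases, was at 0, 70.0, 157 and 18.7 CPM. *Mid1*, for a ubiquitin ligase, was at 99.9, 40.5, 6.92 and 88.7 CPM. *Mid1-ps1*, which matches it at 99.6% over 1142 bases, was at 11.3, 4.48, 1.2 and 13.9 CPM, and both were lowest in replicate 3. *Gm47283*, which the annotation places on chromosome Y like *Mid1-ps1*, was not listed as a match of *Mid1* by the sequence search. Whether the counts of these entries come from that chromosome was not tested. Summed with *Gm47283*, *Mid1* and *Mid1-ps1* were at 169.8, 78.0, 13.8 and 148 CPM. This sum remained uneven, with a CV of 69.2%.

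**Figure D5:**
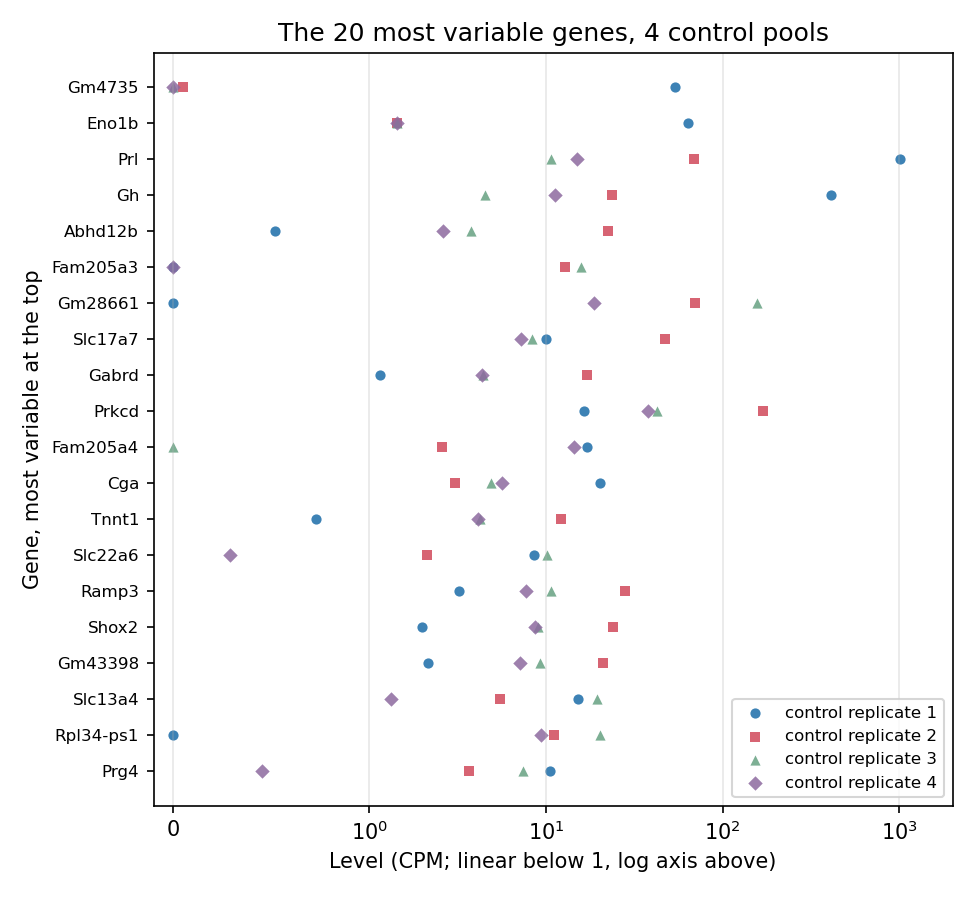
Level in CPM of the 20 genes with the highest coefficient of variation among genes with a mean of at least 5 CPM, with 1 point for each of the 4 control pools, on an axis that is linear below 1 and logarithmic above. *Prl* and *Gh* are highest in replicate 1, *Prkcd* and *Slc17a7* in replicate 2.

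At the other end, the least variable genes with a mean of at least 50 CPM were even to within less than counting alone would give. *Pdzd4*, for a protein with a PDZ domain, was at 135 CPM in each pool, with a CV of 0.147%. *Carm1*, for an arginine methyltransferase, was at 78.8, 79.4, 79.1 and 78.9 CPM and the elongation factor gene *Eef1b2* at 113, 114, 113 and 114 CPM. They are the extremes of many genes and were picked by this value. *Gapdh* and the actin gene *Actb*, often used as references, summed to 1729.5, 1741, 1725 and 1606 CPM per kb, with replicate 4 lowest.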

How the data were processed

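Hypothalamic RNA of the control pools was measured by sequencing. The deposited table holds estimated counts (expected counts) per gene, which the authors made with Salmon 1.10 against GENCODE vM32 (GRCm39) and summed to genes. The deposited DESeq2 table holds the authors' comparison of genotypes and was not used. Library sizes were scaled with TMM factors from edgeR 4.0.16 in R 4.3.3 over all 8 pools, with counts rounded and 18637 genes kept by filterByExpr. Lengths, biotypes and positions came from GENCODE M21 (GRCm38), in which 51424 of the 55890 genes were found. CPM per kb used the longest transcript of the gene's own biotype. Shared sequence was searched with blastn 2.17.0 at an identity of at least 90% over at least 100 bases. Other steps used Python 3.11.15, numpy 2.4.6, pandas 2.3.3, scipy 1.17.1 and matplotlib 3.10.9. DESeq2 1.42.0 gave the size factors of an alternative scaling.

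Named genes were members of 30 lists, the 20 highest by CPM and by CPM per kb, the 10 highest long non-coding RNA genes, the 5 highest pseudogenes, and the 20 most variable genes at a mean of at least 5 CPM and 10 least variable at 50 CPM. *Eno1*, *Mid1*, *Mid1-ps1*, *Gm47283*, *Golt1a* and *Gm28040* were added after their values were seen. Members and lists were chosen with earlier results of these data known. No test between groups was run, since there is 1 group. Dixon's 95% value was used to name pools apart from the others, with no p-value, and chi-square per degree of freedom describes pairs of pools. Limits for genes at 0 (3 counts) cover counting error only. Alternatives were other scalings, filters and lengths, and leaving out each pool in turn. The steps for variation were tested on simulated data.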

Additional observations from a re-analysis of the deposited data

Results flagged for a closer look

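A pool was far from the other 3 in 4 of 30 lists and 15 of 106 genes named in the text, judged by its gap to the nearest pool over the whole range. Chance gives this in about 1 of 20 groups, and the genes were partly named for their variation. In replicate 1 the ratio was 0.949 for the summed anterior pituitary list (highest) and 0.936 for the oligodendrocyte list (lowest). Among genes highest in replicate 1, it was 0.942 for *Prl*, 0.953 for *Gh*, 0.853 for *Cga*, 0.978 for *Pomc*, 0.894 for *Npy*, 0.929 for *Chgb*, 0.999 for *Gm4735* and 1 for *Eno1b*. Among genes lowest there, it was 0.851 for *Mbp* and 0.89 for *Mag*. In replicate 2, the highest pool, it was 0.937 for the cortical and hippocampal list, 0.931 for *Slc17a7*, 0.831 for *Prkcd*, 0.854 for *Abhd12b* and 0.9 for *mt-Co2*. In replicate 4 it was 0.882 for the reference genes (lowest) and 0.851 for *Malat1* (highest). The causes were not tested.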

How the results depend on the processing

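No paired analysis was possible because the 4 control pools form 1 group with no partner samples, and no result comes from a test between groups. With any count in any pool as the limit, 30156 genes were detected. With mitochondrially encoded genes left out, the protein-coding share was 96.7% and 1338.5 genes held 50% of the counts. The median CV was 4.85 to 5.70% when 1 pool was left out, 4.20% for genes with a mean of at least 10 CPM and 17.4% with no filter. On the log2 scale the median SD was 0.0764, a different unit. Genes with a 2-fold range numbered 223 to 302 when 1 pool was left out, 59 at a mean of at least 10 CPM and 12327 with no filter. Genes with a lone pool numbered 4996 with no filter, and leaving out a pool was not run for them because the ratio is set for 4 pools. The cause was not tested beyond the number of genes that each filter keeps. Other scalings moved none of the 30 list means by more than 1 SD. The length of all exons moved 19 list means, and leaving out the most abundant gene moved 25. The 10 leading neuropeptides were the same under each scaling and with each pool left out, and 9 remained when CPM was not divided by length. Depth limits values near 1 CPM, where counting gives much of the variation.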
